A study of Mus musculus with 8 samples.

Results

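The 37 synaptic genes described here comprise 24 genes of presynaptic transmitter release and 13 genes of the postsynaptic scaffold. They were taken by name: every non-control probe whose deposited gene name equals one of the 37 symbols was used, which gave 66 of the array's 39429 probes. Of the 37 genes, 36 had a probe that could be measured, among 18334 measured genes of 30140 gene names on the array.

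The series measured RNA from whole hippocampus of C57BL/6 mice on 8 Agilent arrays, to compare mice with and without a conditional deletion of Ctcf, the gene of a DNA-binding protein that organises chromatin loops. All mice carried loxP sites in both copies of Ctcf. The mice called WT here had no Cre, and the mice called CKO also carried Camk2a-Cre, which is active in excitatory neurons of the forebrain, so hippocampal cells in which it is not active are expected to keep the gene. An effect of the Cre transgene itself cannot be told apart from loss of Ctcf, because no group carried Cre without the loxP sites. Each genotype was sampled as 3 pools of 3 mice. Pool 1 held 2 females and 1 male of 19 to 23 weeks, pool 2 held 3 females of 18 to 19 weeks and pool 3 held 3 males of 15 to 17 weeks, in both genotypes. All mice had been through behavioural tests before the tissue was taken.

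At a synapse, SNARE proteins on the vesicle (Vamp1, Vamp2) and on the plasma membrane (Stx1a, Snap25) zip together to fuse the 2 membranes, complexins hold the assembled complex ready, and synaptotagmins trigger fusion when calcium enters. Rim, Munc13 (Unc13a), bassoon and piccolo proteins organise the active zone where vesicles dock, and vesicular transporters load the vesicles with transmitter. Opposite the release site, Dlg, Dlgap, Shank and Homer proteins form a layered scaffold that anchors glutamate receptors. Most of these genes are expressed in all or nearly all neurons, and in bulk tissue fewer neurons and less RNA per neuron cannot be told apart.

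Each gene was read by a probe of 60 bases. The first 30 bases are shown for the 3 genes with an unadjusted p under 0.05 (Vamp2, Slc17a7 and Homer3) and for both probes of Unc13a, whose differences had opposite signs. They are printed as deposited. The files do not state which strand a probe reads.
Vamp2: agtgtgagagagaaagcaagctatttcctt
Slc17a7: ttcaaggctcgcctaaccaattctacattt
Homer3: taccttcccctccaggatcatctgtttccg
Unc13a, used: agttcgccaccaaatccaaaaacaacagct
Unc13a, other: acatatgagcagccaagggacacctgagat

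Cplx2 had 5 probes, and 3 of them held an exact 3-base repeat of at least 18 bases, against 81 of the array's 39429 probes (0.205%). A stretch of 30 bases is shown for these 3 and for the probe used, because such repeats are rare on the array and the probes gave differences of both signs. Capitals mark the repeat. The first line is the probe used, the brightest, which has mixed sequence.
Cplx2, used: tccccactttgtatgatgcaaatgctaaga
Cplx2, repeat of 44 bases: AGGAGGAGGAGGAGGAGGAGGAGGAGGAGG
Cplx2, repeat of 20 bases: AGGAGGAGGAGGAGGAGGAGaaggagaagg
Cplx2, second repeat of 20 bases: AGGAGGAGGAGGAGGAGGAGaaggaagagg

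The only probe of Snap25 begins with a 2-base repeat of 20 bases, in capitals here. A 2-base repeat of at least 12 bases occurred in 214 probes of the array (0.543%).
Snap25: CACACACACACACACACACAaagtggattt

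Values are log2 signals after each array's 75th percentile was set to 0, so a level of 1 is a signal of 2 times that percentile. Levels of different probes are not comparable, and only the same probe is compared across pools. Differences are CKO minus WT over 3 pools each, tested with limma across all 18334 genes, with p-values adjusted by Benjamini-Hochberg. Pool 1 of each genotype was hybridised to a pair of arrays, one on each of the 2 slides, and these were averaged to 1 value. Pool 2 of both genotypes was on slide 1 alone and pool 3 of both on slide 2 alone. Within-slide differences therefore compare pools 1 and 2 on slide 1 and pools 1 and 3 on slide 2. The labels name pools of different mice, so the spread between pools includes animal differences.

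Ctcf itself, read first as a check of the labels, was 0.83, 1.12 and 1.04 in WT pools 1 to 3 and 0.18, 0.16 and 0.05 in the CKO pools. The difference was -0.87 (SE 0.13; adjusted p = 0.142 in limma, 0.0294 with the pool number as a block). The second array of WT pool 1 stood apart: its 75th percentile signal was 2112, against 2883 to 5104 on the other 7 arrays. In limma, 5 of 18334 genes passed an adjusted p of 0.05 (0.0273%), 103 with the pool number as a block (0.562%), and 0.584% without that array (60 higher and 47 lower). In that last fit CKO pool 1 kept both of its arrays, so only WT lost a reading on slide 2. The mean difference was 0.02 over 6 pan-neuronal markers and 0.03 over 6 markers of inhibitory neurons. Single markers differed by more. Tubb3, a neuronal tubulin, differed by -0.55, Nefl, a neurofilament subunit, by 0.44, and Wfs1, a marker of CA1 neurons, by -0.91, none past an adjusted p of 0.05. The 7 choroid plexus markers were all higher in CKO (mean 0.77). Against the WT mean, they averaged -1.19, 0.38 and 0.81 in WT pools 1 to 3. The CKO pools averaged 0.91, 0.97 and 0.43 on the same scale. WT pool 1 was thus the lowest, and WT pool 3 lay within the CKO range. The log2 of the summed signal of these markers lay between 4.98 and 6.43 in WT pools and between 6.07 and 6.57 in CKO pools. The 4 CA1 markers (mean -0.40) and the 2 dentate markers measured of 4 (mean -0.93) were all lower in CKO, and the 6 oligodendrocyte markers all higher (mean 0.26). The part of these cell types in the synaptic values was not tested.

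None of the 36 measured synaptic genes passed the adjusted threshold, beside the 0.0273% of all genes that did. This held for the 23 presynaptic genes (smallest adjusted p 0.853) and for the 13 postsynaptic genes (smallest 0.910) in limma. At an unadjusted p under 0.05 there were 2 presynaptic genes, both higher in CKO, and 1 postsynaptic gene, lower in CKO, against 5.47% of all genes (2.91% higher and 2.56% lower). The presynaptic genes had 14 higher and 9 lower, with a median difference of 0.05 and a range of -0.37 to 0.37. The postsynaptic genes had 8 higher and 5 lower, with a median of 0.04 and a range of -0.36 to 0.49. The median over all genes was -0.003. With arrays centred on their medians in place of the 75th percentile, both medians were just below 0 (-0.00737 presynaptic and -0.00971 postsynaptic). The pools of the genotypes did not overlap for 4 presynaptic genes, all higher in CKO, and for 1 postsynaptic gene, lower in CKO, beside 11.3% of all genes (5.72% higher and 5.62% lower).

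The unadjusted intervals show how large a change in whole-hippocampus RNA, on the probe used, could have gone unseen. They do not bound a change within the excitatory neurons alone. The 95% interval lay inside a 2-fold change in either direction for 22 of 23 presynaptic genes and 12 of 13 postsynaptic genes, against 90.9% of all genes. It lay inside 1.5-fold for 15 presynaptic and 7 postsynaptic genes, against 50.2% of all genes. The exceptions at 2-fold were Slc17a6 and Dlgap2.

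**Figure D1:**
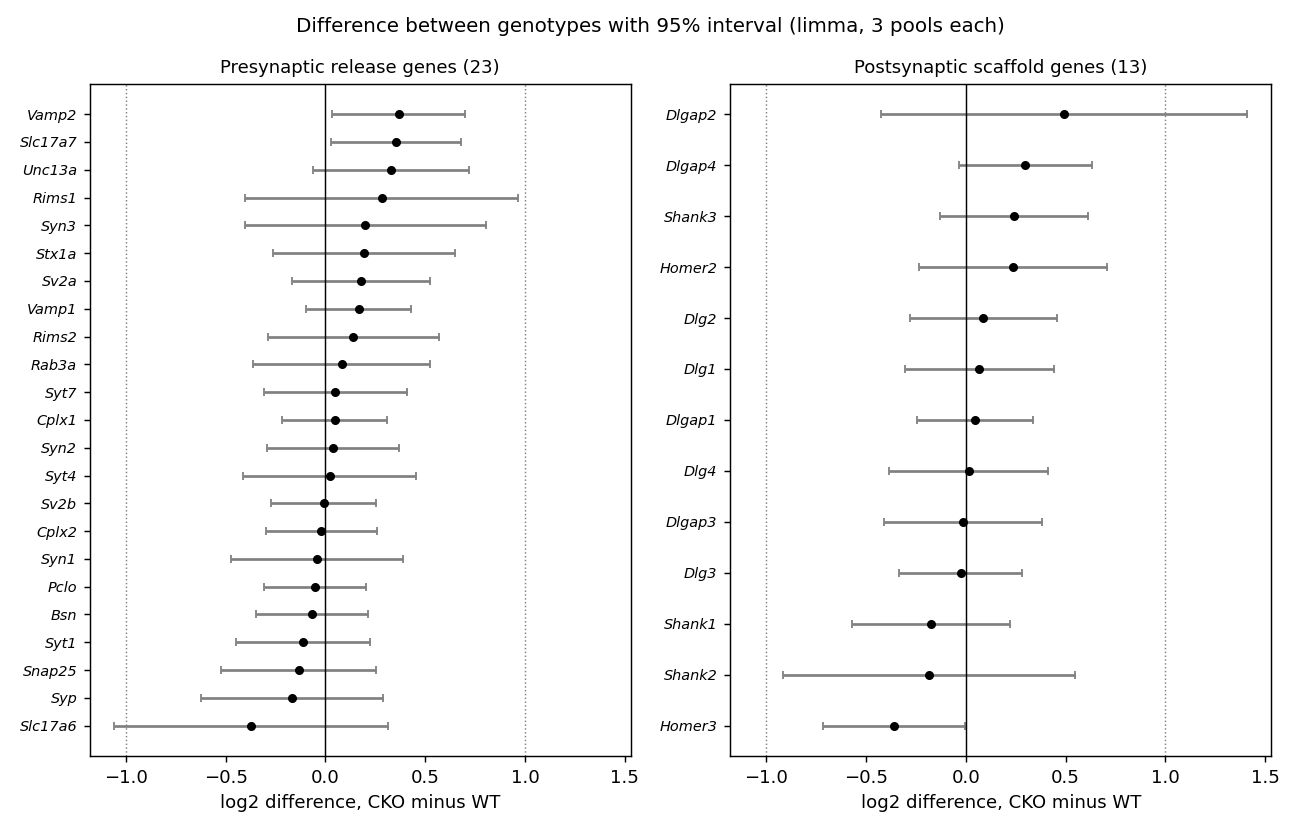
Log2 difference, CKO minus WT, of the 23 presynaptic genes (left) and 13 postsynaptic genes (right), sorted by size; points are limma estimates from 3 pools per genotype, bars are 95% intervals and dotted lines mark a 2-fold change. The intervals of Vamp2, Slc17a7 and Homer3 leave out 0 before adjustment, and those of Slc17a6 and Dlgap2 cross a 2-fold line.

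Among the SNARE genes, Vamp2 encodes synaptobrevin 2, the main vesicle SNARE of forebrain neurons. Its level was 2.45, 2.80 and 2.78 in WT pools 1 to 3 and 2.86, 3.14 and 3.14 in CKO pools 1 to 3. The lowest CKO pool was above the highest WT pool. The difference was 0.37 (SE 0.15, 1.29-fold, 95% interval 0.04 to 0.70, unadjusted p = 0.0340, adjusted p = 0.853 in limma). The arrays of WT pool 1 gave 2.85 and 2.05. Without the lower of them, the difference was 0.23 (SE 0.10, adjusted p = 0.293 in limma). The pools were then only just apart, with the highest WT pool at 2.851 and the lowest CKO pool at 2.856. In that fit the pools of 23.8% of all genes did not overlap. Within the slides the differences were 0.24 and 0.51.

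Vamp1, synaptobrevin 1, was 1.46, 1.42 and 1.39 in the WT pools and 1.69, 1.59 and 1.49 in the CKO pools. These pools did not overlap either, and the WT pools spanned only 0.07. The difference was 0.17 (SE 0.11, adjusted p = 0.999 in limma), with within-slide values of 0.23 and 0.14. The partner SNAREs on the plasma membrane did not share a direction. Snap25 was 5.87, 5.32 and 5.52 in the WT pools and 5.58, 5.32 and 5.41 in the CKO pools. The ranges overlapped, with WT pool 1 above every CKO pool. The Snap25 difference was -0.13 (SE 0.17, 95% interval -0.52 to 0.25). Without the second array of WT pool 1, which read 6.21 against 5.52 on the first, it was -0.02. Stx1a, syntaxin 1A, differed by 0.19 (95% interval -0.26 to 0.65).

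On the probes used, the complexins varied little between pools. Cplx1 ranged from 4.18 to 4.35 over the 6 pools and differed by 0.05 (95% interval -0.21 to 0.31). Cplx2, on its probe of mixed sequence, ranged from 3.97 to 4.19 and differed by -0.02 (95% interval -0.30 to 0.26). Its 3 repeat probes gave -0.08 (the 44-base repeat) and 0.08 and 0.10 (the 20-base repeats), all within 1 SE of 0. Its remaining probe, made of A and G alone like the 3 repeat probes, gave 0.38 (SE 0.39). On that probe WT pool 3 was at -0.24 and the other 5 pools between 1.15 and 1.48. Over the array, 0.0583% of probes were of A and G alone.

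The differences of the glutamate transporters that load vesicles had opposite signs. Slc17a7 encodes VGLUT1, the transporter of cortical and hippocampal excitatory neurons. Its level was 0.17, 0.45 and 0.08 in the WT pools and 0.50, 0.63 and 0.64 in the CKO pools, so that all CKO pools were above all WT pools. The difference was 0.35 (SE 0.14, 1.28-fold, 95% interval 0.03 to 0.68, unadjusted p = 0.0362, adjusted p = 0.855 in limma). Without the second array of WT pool 1 the difference was 0.33 (SE 0.12, adjusted p = 0.234 in limma). Within the slides it was 0.24 and 0.46. The other markers of excitatory neurons gave 0.03 for Camk2a, -0.09 for Neurod6, 0.14 for Neurod2 and 0.15 for Nrgn.

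Slc17a6 encodes VGLUT2, the transporter of subcortical glutamate neurons such as those of the thalamus. It was -0.03, 0.18 and 1.20 in the WT pools and -0.02, -0.06 and 0.31 in the CKO pools. WT pool 3 stood above the other 5 pools, and those 5 overlapped. The difference of -0.37 (SE 0.30, 95% interval -1.06 to 0.31, adjusted p = 0.999 in limma) became 0.004 without WT pool 3 and -0.50 without the second array of WT pool 1. The 5 markers of thalamus and habenula were highest on average in the same pool, at 0.40 above the WT mean, against -0.48 to -0.11 in the other 5 pools. Among them, Prkcd read 1.56 and Zfhx3 -1.38 in that pool, each the highest of the 6 pools. The other markers, Tcf7l2, Lef1 and Pou4f1, read -2.60, -3.20 and -2.03 there and were not the highest. Their part in the Slc17a6 result was not tested.

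**Figure D2:**
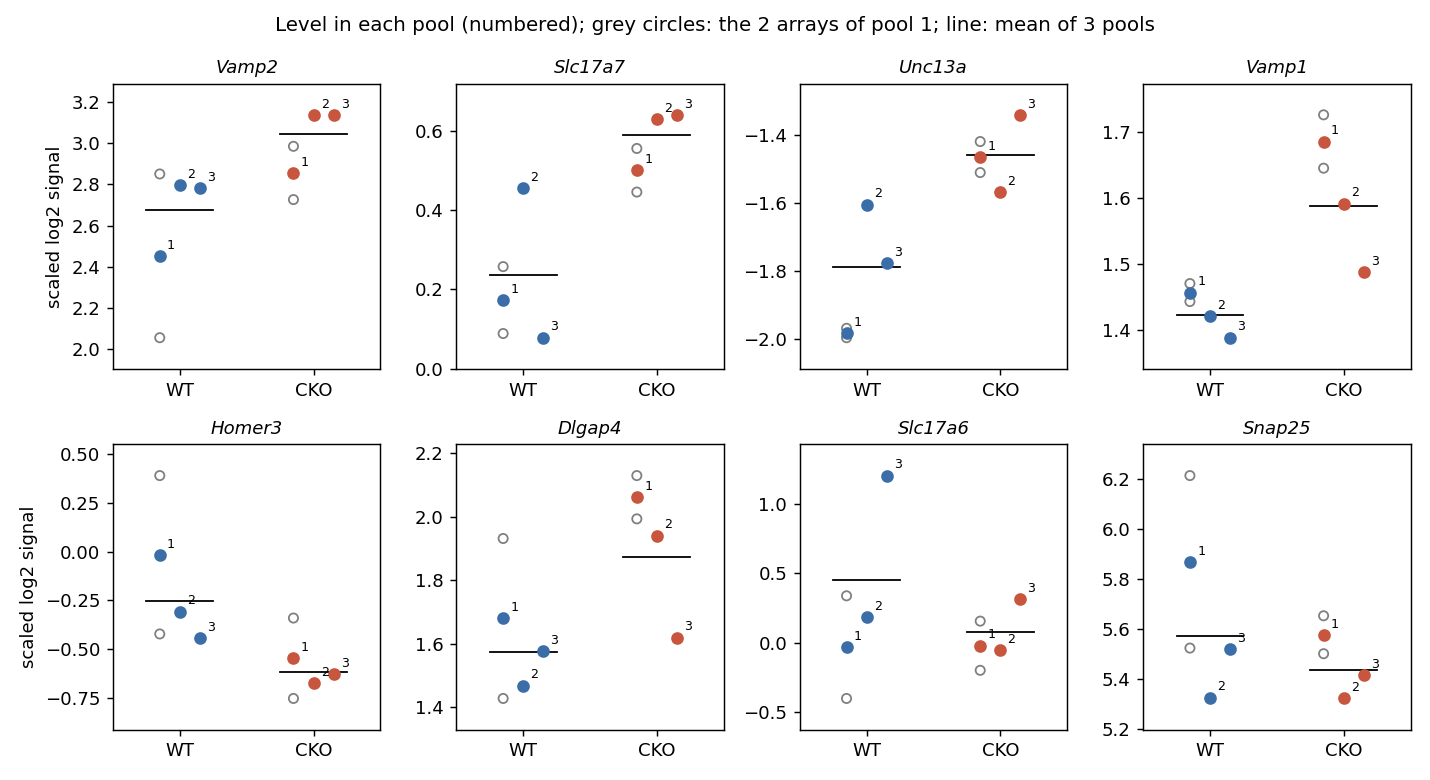
Scaled log2 signal of 8 genes in each pool; filled points are pools 1 to 3, grey circles the arrays of pool 1, and lines the mean of 3 pools, with a separate axis range for each gene. CKO pools lie above WT pools for Vamp2, Slc17a7, Unc13a and Vamp1 and below them for Homer3, and the Slc17a6 mean of WT is raised by pool 3 at 1.20.

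Active zone genes are those that place and prime vesicles. Unc13a, the main Munc13 priming factor of the hippocampus, was -1.98, -1.60 and -1.78 in the WT pools and -1.47, -1.57 and -1.34 in the CKO pools. The pools did not overlap, although WT pool 2 and CKO pool 2 were close. The difference was 0.33 (SE 0.17, unadjusted p = 0.0887, adjusted p = 0.985 in limma), with 0.25 and 0.50 within the slides. The other Unc13a probe went the other way, at -0.11 (SE 0.17), with overlapping pools. Both Rim genes, whose proteins tether vesicles to calcium channels, had positive but wide estimates: Rims1 differed by 0.28 (95% interval -0.40 to 0.97) and Rims2 by 0.14 (95% interval -0.29 to 0.57). The giant scaffolds bassoon and piccolo were tighter. Bsn differed by -0.07 (95% interval -0.35 to 0.21) and Pclo by -0.05 (95% interval -0.31 to 0.20), and the WT pools of Pclo spanned only 0.11.

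Vesicle membrane genes gave differences of either sign. Sv2a, a vesicle glycoprotein, was 1.92, 2.04 and 1.53 in the WT pools and 1.98, 2.09 and 1.95 in the CKO pools. Only WT pool 3 lay outside the CKO range by more than 0.1, and the difference was 0.18 (SE 0.15, adjusted p = 0.999 in limma), or 0.03 without that pool. Its relative Sv2b differed by -0.01 (95% interval -0.27 to 0.25). Syp, synaptophysin, differed by -0.17 (95% interval -0.62 to 0.29), and without the second array of WT pool 1 by -0.01. Rab3a, the vesicle GTPase, differed by 0.08 (95% interval -0.36 to 0.53). Its reading of WT pool 1 was 4.56 on the first array and 6.27 on the second, while the other 6 arrays lay between 5.67 and 6.09. The difference within slide 1 was 0.73 and within slide 2 -0.27.

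The synapsins tether vesicles in the reserve pool. Syn1 differed by -0.04 (95% interval -0.47 to 0.39) and Syn2 by 0.04 (95% interval -0.29 to 0.37). Syn3 differed by 0.20 (95% interval -0.40 to 0.81) on the probe used and by -0.20 on a dimmer probe. Its WT pools were -1.37, -2.27 and -2.30 and its CKO pools -1.67, -1.88 and -1.79. WT pool 1 was highest because its second array read -0.74 against -1.99 on the first. Without that array the difference was 0.41 (SE 0.14, adjusted p = 0.227 in limma), and the pools no longer overlapped. The second array of CKO pool 1, at -1.40 against -1.94 on the first, was kept. Among the synaptotagmins, Syt1, the fast calcium sensor, differed by -0.11 (95% interval -0.45 to 0.22). Syt4 differed by 0.02 (95% interval -0.41 to 0.45) and Syt7, a slow sensor, by 0.05 (95% interval -0.31 to 0.41). Syt2, a fast sensor used mainly in hindbrain and in some inhibitory neurons, was not well above background on any of the 8 arrays. Its readings were -6.84, -7.55 and -7.19 in the WT pools and -6.96, -7.60 and -7.48 in the CKO pools, and no difference is given.

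On the postsynaptic side, the Dlg genes encode the layer nearest the receptors. Dlg4, which encodes PSD-95, was 4.17, 3.65 and 3.64 in the WT pools and 3.85, 3.66 and 3.99 in the CKO pools. The pools overlapped and the difference was 0.02 (SE 0.17, 95% interval -0.38 to 0.41, or 0.767 to 1.33-fold). Dlg1, Dlg2 and Dlg3 differed by 0.07, 0.09 and -0.03, and the intervals of all 4 Dlg genes lay inside 1.5-fold in either direction. No other postsynaptic family had its intervals that narrow throughout.

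The Dlgap proteins link the Dlg layer to the Shank layer. Dlgap4 was 1.68, 1.47 and 1.58 in the WT pools and 2.06, 1.94 and 1.62 in the CKO pools. CKO pools 1 and 2 were above all WT pools, and CKO pool 3 lay within the WT range. The difference was 0.30 (SE 0.15, 1.23-fold, unadjusted p = 0.0727, adjusted p = 0.976 in limma), with 0.34 and 0.30 within the slides.

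Dlgap2 had the largest postsynaptic estimate and the widest interval. It counted as measured only through CKO, with all 4 CKO arrays well above background but 3 WT arrays. It was -3.02, -1.26 and -1.79 in the WT pools and -1.74, -1.55 and -1.31 in the CKO pools. WT pool 1 was the lowest because its second array read -4.44, where the first read -1.61 and the CKO arrays lay between -1.98 and -1.31. The difference of 0.49 (SE 0.40, adjusted p = 0.999 in limma) became 0.02 (SE 0.17) without that array. A dimmer Dlgap2 probe, also well above background on only 3 WT arrays, gave 0.36 (SE 0.25). Dlgap1 differed by 0.04 and Dlgap3 by -0.01, although a dimmer Dlgap3 probe gave 0.42 (SE 0.21).

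The Shank genes encode the deepest layer of the scaffold. Shank3 was -0.81, -0.36 and -0.62 in the WT pools and -0.46, -0.37 and -0.24 in the CKO pools. WT pool 2 lay within the CKO range. The difference was 0.24 (SE 0.16, unadjusted p = 0.174, adjusted p = 0.999 in limma), and 0.16 without the second array of WT pool 1. Its probe was printed 10 times on each array, which averages out spot noise but not differences between pools. Shank1 differed by -0.17 on the probe used and by 0.13 to 0.21 on its other 3 probes. Without the second array of WT pool 1, the probe used gave -0.0079. Shank2, near the bottom of the measured range at the 14.4th percentile of genes, differed by -0.19 (SE 0.32). It was well above background on 3 WT arrays and 4 CKO arrays. Without the second array of WT pool 1 the difference was -0.42 (SE 0.19, adjusted p = 0.300 in limma). That fit kept the second array of CKO pool 1, at -4.15 against -3.31 on the first. The Shank2 pools were then only just apart, with the lowest WT pool at -3.197 and the highest CKO pool at -3.199. Within the slides the differences were -0.26 and 0.08.

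Homer proteins join Shank to metabotropic glutamate receptors. Homer3 was -0.02, -0.31 and -0.44 in the WT pools and -0.55, -0.67 and -0.63 in the CKO pools, so that every CKO pool was below every WT pool. The difference was -0.36 (SE 0.16, 95% interval -0.72 to -0.01, unadjusted p = 0.0471, adjusted p = 0.910 in limma), or 1.28-fold lower in CKO. WT pool 1 read -0.42 on its first array and 0.39 on its second. Without the second array, the difference was -0.23 (SE 0.11, adjusted p = 0.320 in limma), and the pools were still apart. Within the slides it was -0.35 and -0.46. Homer2 was 1.06, 0.95 and 0.28 in the WT pools and 1.11, 0.89 and 1.01 in the CKO pools. Only WT pool 3 was low, and the difference of 0.24 (SE 0.21) became -0.003 without that pool.

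Several genes could be checked against a second probe. Of 14 genes with more than 1 measured probe, 8 had probes whose differences carried both signs: Cplx2, Dlgap1, Dlgap3, Pclo, Shank1, Syn3, Syt7 and Unc13a. None of the 58 measured probes passed the adjusted threshold when all 23633 probes were tested singly in limma. Of the 3 genes at an unadjusted p under 0.05, none had another measured probe: the other Homer3 probe was not well above background on any array.

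**Figure D3:**
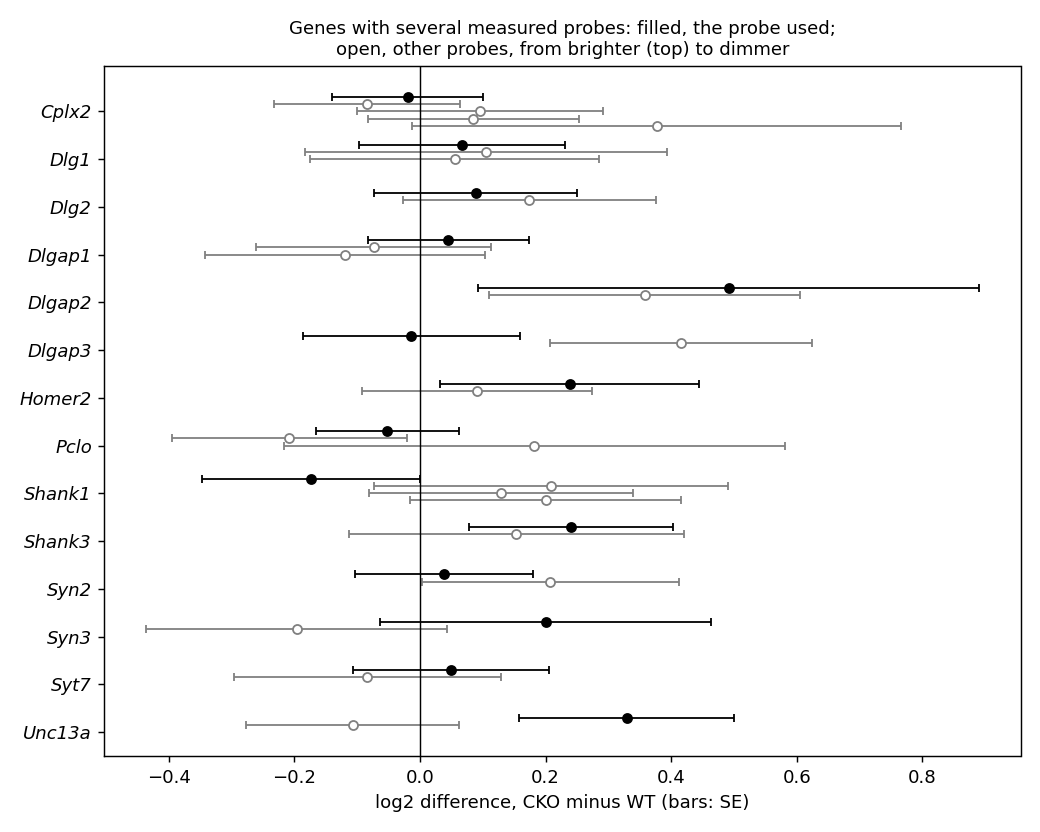
Log2 difference, CKO minus WT, for every measured probe of the 14 genes that had more than 1; filled points are the probes used and open points the others, from bright to dim, with bars of 1 SE. The Unc13a probes read 0.33 and -0.11, and the Dlgap3 probes -0.01 and 0.42.

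How far the repeat array of WT pool 1 moved the synaptic genes can be read from pool 1 of each genotype, which had a pair of arrays. The second array differed from the first by a median of 0.47, sign ignored, over the 36 genes in WT pool 1, and by 0.16 in CKO pool 1. The range was -2.83 (Dlgap2) to 1.71 (Rab3a) in WT pool 1 and -0.84 (Shank2) to 0.54 (Syn3) in CKO pool 1. The change was larger in WT pool 1 for 34 of 36 genes and had the same sign in both genotypes for 32. Across these 36 genes, which are not independent, the changes in WT and CKO pool 1 had a Pearson r of 0.85. The first arrays of both pools shared 1 slide and the second arrays the other.

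**Figure D4:**
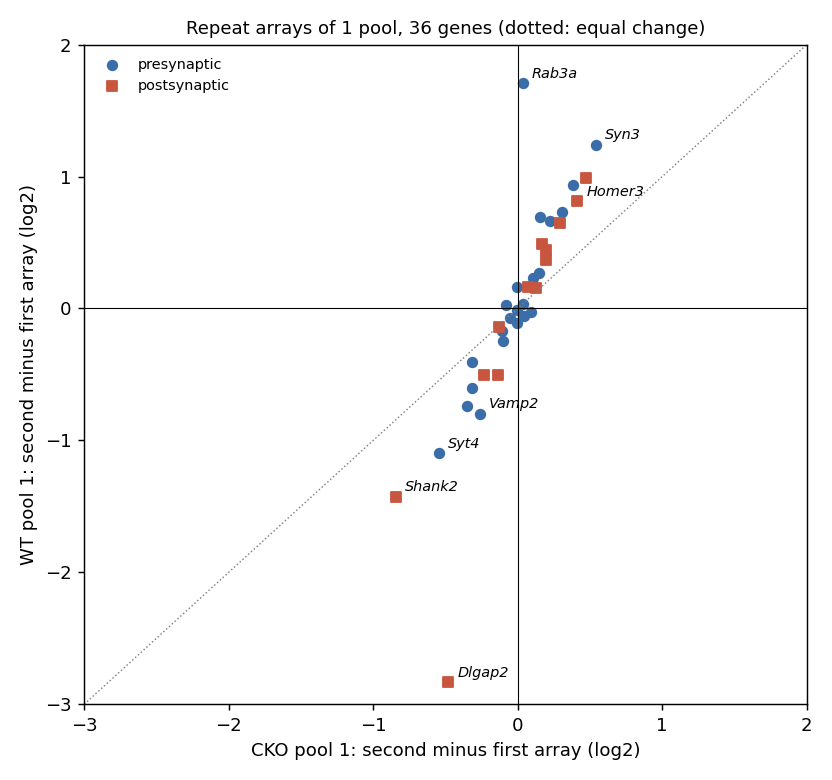
Second minus first array of pool 1, in log2, for the 36 measured genes: CKO pool 1 on the horizontal axis, WT pool 1 on the vertical axis, with presynaptic genes as circles and postsynaptic genes as squares. Genes that were higher on the second array in CKO were mostly higher in WT too, by more than the dotted line of equal change, and Rab3a (1.71 in WT) and Dlgap2 (-2.83 in WT) lie farthest from it.

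Without the second array of WT pool 1, still none of the 36 genes passed the adjusted threshold, beside 0.584% of all genes. CKO pool 1 kept both of its arrays in this fit, so the slides were no longer balanced between the genotypes. The part of this imbalance in the values was not tested. The unadjusted p was then under 0.05 for 4 presynaptic genes (Syn3, Vamp2, Unc13a and Slc17a7, all higher in CKO) and for no postsynaptic gene, beside 16.8% of all genes. The pools did not overlap for 5 presynaptic genes, those 4 and Vamp1, all higher, and for Shank2 and Homer3, both lower, beside 23.8% of all genes. Those of Vamp2 and Shank2 were only just apart. With the first arrays alone in both genotypes, again none of the 36 genes passed, beside 0.665% of all genes.

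Other genes of the same machinery gave the same count of 0. Of 50 further presynaptic genes measured, 24 were higher and 26 lower (median -0.01), and none passed the adjusted threshold in limma. Of these, 2 had an unadjusted p under 0.05, beside 5.47% of all genes, and the pools did not overlap for 3 genes higher and 3 lower in CKO, beside 11.3% of all genes. Rims4 was not measured. Lin7a, a scaffold of the presynaptic and postsynaptic Cask complex, was 0.51, 0.41 and 0.02 in the WT pools and 1.02, 0.74 and 0.83 in the CKO pools. The pools did not overlap, and the difference was 0.55 (SE 0.16, 1.46-fold, unadjusted p = 0.00924, adjusted p = 0.586 in limma). Rph3a, rabphilin, an effector of Rab3, was -0.17, -0.38 and -0.47 in the WT pools and 0.12, -0.02 and 0.24 in the CKO pools. It too was apart, by 0.45 (SE 0.15, 1.37-fold, adjusted p = 0.680 in limma). Unc13c, a Munc13 relative, differed by -0.58 (SE 0.26) at a level near the bottom of the measured range, and Rims3, a short Rim protein, by -0.51 (SE 0.24), neither past the adjusted threshold.

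Of 24 further postsynaptic genes measured, 10 were higher and 14 lower (median -0.04), and none passed the adjusted threshold in limma. Of these, 1 had an unadjusted p under 0.05, beside 5.47% of all genes, and none had pools that did not overlap, beside 11.3% of all genes. Dlgap5 and Lzts1 were not measured. Iqsec2, an Arf exchange factor of the postsynaptic density, was 1.11, 2.05 and 2.06 in the WT pools and 0.88, 0.55 and 1.45 in the CKO pools. WT pool 1 lay within the CKO range. The difference was -0.78 (SE 0.30, 1.72-fold lower in CKO, unadjusted p = 0.0315, adjusted p = 0.839 in limma), made of -1.12 within slide 1 and -0.17 within slide 2. Nos1ap, an adaptor of neuronal nitric oxide synthase, differed by 0.52 (SE 0.32), Iqsec1, a relative of Iqsec2, by 0.52 (SE 0.38) and Kalrn, a protein of dendritic spines, by -0.14 (SE 0.14), none past the adjusted threshold.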

How the data were processed

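Red-channel intensity values of 8 Agilent 1-colour arrays were deposited as scanner output. Per the file headers, Feature Extraction 11.5.1.1 had subtracted background and written flags for spots above background and outliers, which were used as deposited. The authors' value table, intensity on a linear scale whose centring is not stated, served as an alternative. In R 4.3.3, processed signals were converted to log2, each array's 75th percentile was subtracted, flagged outliers and control spots were left out, and spots of 1 probe were averaged. A probe counted as measured where all 4 arrays of WT, or all 4 of CKO, had it flagged well above background. Each gene was read by its measured probe of highest mean signal. The arrays of pool 1 were averaged. limma 3.58.1 (lmFit and eBayes with a trend) was fitted to 3 WT and 3 CKO pools, and the procedure was tested on simulated data.

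Pool numbers pair pools of like sex and age, and same-numbered pools also had the same slide layout. Same-numbered pools deviated from their genotype means together (r = 0.549, 0.334 and 0.131 over 18306 genes, against at most 0.123 for other pairs). Deviations from a genotype mean cancel out over its pools, which lowers the r of other pairs, so these are not an independent comparison. The number was also fitted as a block, which cannot tell sex and age from slide. Genes and lists were chosen with earlier results of these data known. Values in every pool are given for the 6 presynaptic and 5 postsynaptic genes of smallest unadjusted p and for Slc17a6, Slc17a7, Syt2, Vamp1, Vamp2, Snap25, Dlg4 and Homer2, and from each further list the 4 genes of smallest p are named. Pool values of Syn3 and array values of Rab3a were added after they were seen. The number of arrays limits the precision. Coordinates are not given, because the gene table used for names is of another build than the array design. Alternatives covered scaling, background correction, filters, probe choice, slides, single arrays, pools left out, weights and the block. A few items are not reported here.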

Additional observations from a re-analysis of the deposited data

How the results depend on the processing

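None of the 36 synaptic genes, and none of the further synaptic genes measured, passed an adjusted p of 0.05 in any of 23 alternatives. The median difference of the 23 presynaptic genes, 0.05, was -0.00737 under median centring and between -0.013 and 0.093 with each pool left out, so its sign depended on the scaling and on single pools; that of the 13 postsynaptic genes, 0.04, was -0.00971 under median centring, -0.063 within slide 1, 0.16 with array weights and between -0.036 and 0.13 with each pool left out. Over the whole array, the share of genes called (0.0273%) became 0.562% with the pool number as a replicate block, 0.376% with that block and quantile normalization, 0.665% with first arrays only, 0.584% without the second array of WT pool 1, 0.644% with array weights, 0.0438% without 3-base repeat probes, 0.0339% of probes tested singly, 0.0164% in the authors' value table, 0% within slide 2 (limma), and 0% to 0.115% with each pool left out. The pool block changed no call among the synaptic genes. Averaging over probes gave 0.091 for Shank1, 0.091 for Cplx2 and 0.13 for Kalrn, and slide 2 alone gave -0.27 for Rab3a, each opposite in sign to the value reported; the cause was not tested. In all, 27 of 36 genes changed sign in at least 1 alternative, and Vamp2 (0.23 to 0.51), Slc17a7 (0.24 to 0.46), Unc13a (0.11 to 0.50), Vamp1 (0.11 to 0.23), Dlgap4 (0.20 to 0.43), Shank3 (0.11 to 0.43) and Homer3 (-0.46 to -0.23) were among the 9 that did not. Syt2, not well above background, could not be compared. Dlgap2, Shank2 and Unc13c entered only 22 of the alternatives. They drop out where all arrays must be well above background, which leaves 11 postsynaptic genes.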
